A study of Arabidopsis thaliana with 12 samples.

Results

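The core circadian clock genes of Arabidopsis were followed in the third leaf of seedlings in which a growth repressor had been switched on. The set was chosen by name, as 10 probe sets of the ATH1 array that each stand for 1 locus: LHY (AT1G01060_at), CCA1 (AT2G46830_at), PRR9 (AT2G46790_at), PRR7 (AT5G02810_at), PRR5 (AT5G24470_at), TOC1 (AT5G61380_at), GI (AT1G22770_at), ELF3 (AT2G25930_at), ELF4 (AT2G40080_at) and LUX (AT3G46640_at). Of these, 8 had values, among 21428 loci in all, and PRR9 and LUX were not analysed here. The rule itself uses no measured value, though the genes were chosen with earlier results of these data known. None of the 8 shared its values with another locus.

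The plant clock is a loop of transcription factors that repress one another in turn through the day. LHY and CCA1 are MYB factors that peak around dawn and hold back evening genes, the pseudo-response regulators PRR9, PRR7 and PRR5 peak one after another through the day and repress LHY and CCA1, and TOC1 does so in the evening. GI stabilises the F-box protein that degrades TOC1 and PRR5 and links the clock to flowering, and ELF3, ELF4 and LUX form the evening complex, a night-time repressor of growth and clock genes.

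All plants were of the Col-0 ecotype and carried 35S::gai-GR, so mock and treated leaves share the transgene. It drives a gibberellin-resistant form of the DELLA protein GAI, fused to the glucocorticoid receptor domain, from a constitutive viral promoter, and dexamethasone lets the fusion enter the nucleus. Seedlings grown for 9 days, in 16 h light and 8 h dark at 21 °C, were moved to 5 µM dexamethasone (DEX) or to DMSO (mock) and taken after 1 h or 4 h. Each of the 4 groups had 3 arrays, labelled as biological replicates, and the leaves of 128 plants were dissected, per the series description. Whether that number is per sample or in all is not given in the sources used here, nor is the number of transgenic lines. Plants without the transgene were not analysed here, so DEX against mock measures dexamethasone and gai-GR together. The hour of day of each harvest is not given, so time on the plate and time of day cannot be told apart between 1 h and 4 h.

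Values are log2 expression after RMA, made by the authors. Array medians lay between 7.48 and 7.78, and mock 4 h replicate 2 was the lowest. With arrays there is no sequencing depth, and 3 per group is what limits the precision. GAI itself differed between DEX and mock by -0.01 (SE 0.08) at 1 h and by 0.00 at 4 h on the log2 scale, and its probe set can read both the transgene and the plant's own gene. The DELLA target GA20OX2, a gibberellin oxidase gene, rose by 4.37 (SE 0.17) at 1 h and by 5.34 at 4 h with DEX. The leaf light-harvesting genes LHCA1, LHCB3 and LHCB5 had means of 13.5 to 13.9 in every group. The stem cell gene WUS, of the shoot meristem, had means of 5.27 to 5.49. The lower quartile of an array was at least 5.79, and levels under it are taken here as near background. Of 5 shoot meristem markers, WUS was the 1 with means under that line. CLV3, STM, KNAT1 and CUC2 had means of 5.84 to 7.24, so a share of meristem in the samples is not excluded by WUS.

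In mock leaves, LHY and CCA1 were high at 1 h and low at 4 h, and the other 6 measured clock genes went the other way. LHY read 10.71, 10.64 and 10.65 on the 3 mock arrays at 1 h, and 7.91, 7.80 and 7.68 at 4 h. CCA1 read 9.47, 9.43 and 9.44 at 1 h, and 7.13, 6.96 and 7.06 at 4 h. For both genes every array at 1 h lay above every array at 4 h, with more than 2 log2 units between the closest arrays. LHY fell by 2.87 (SE 0.11) on the log2 scale, a 7.31-fold lower level, with a limma adjusted p of 1.35e-09, and its change ranked 4 by size among the 21428 loci. CCA1 fell by 2.40 (SE 0.11), a 5.28-fold lower level, with adjusted p = 2.98e-08 and rank 8.

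**Figure D1:**
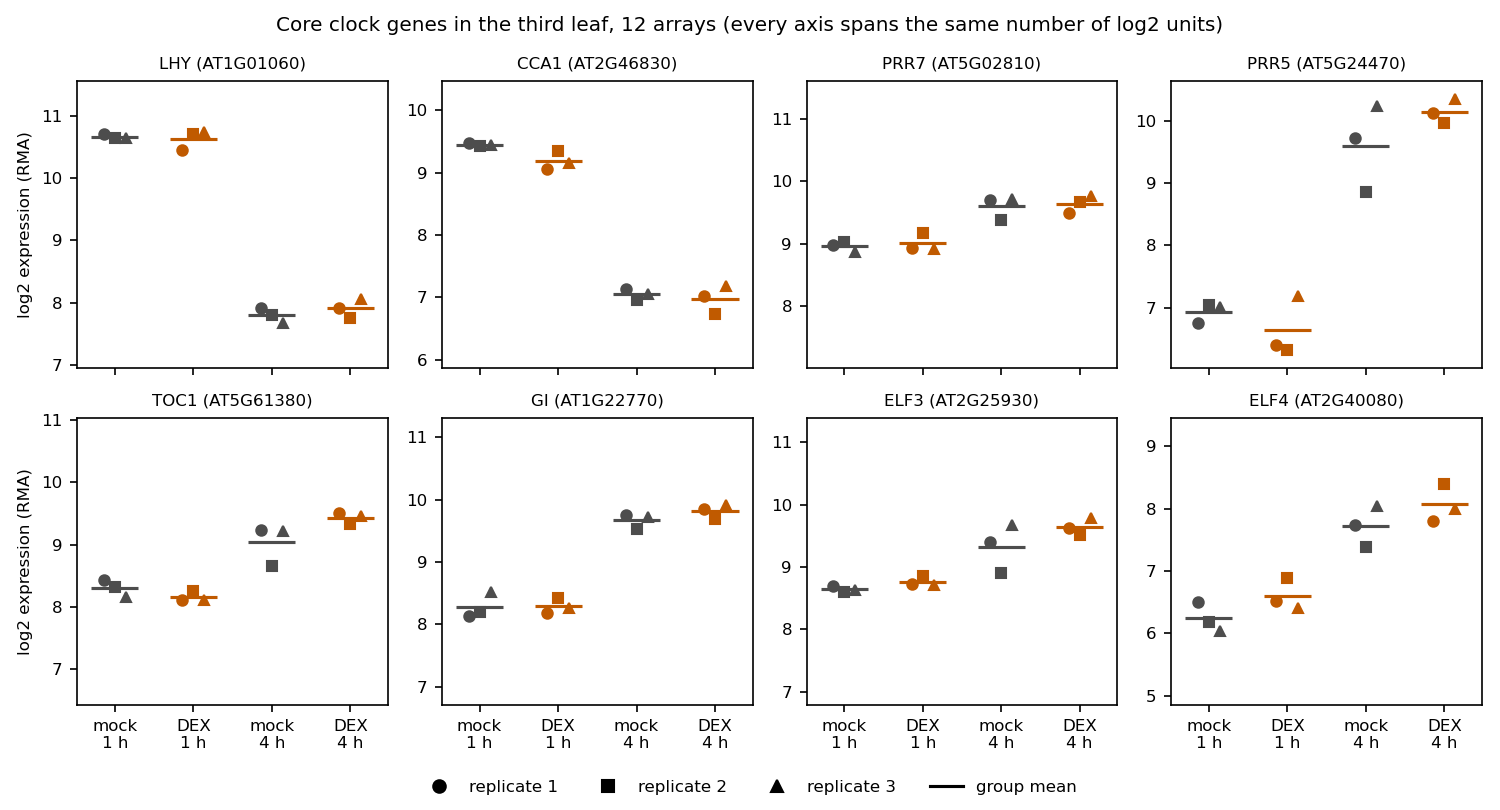
Log2 expression (RMA) of the 8 measured clock genes on each of the 12 arrays, with points for single arrays, symbols for the replicate number and lines for the group means of 3. All panels span the same number of log2 units. LHY and CCA1 drop from 1 h to 4 h in mock and DEX alike, the other 6 genes lie higher at 4 h, and PRR5 has the widest spread within groups.

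Of the day-phase repressors, PRR5 moved most. It read 6.76, 7.04 and 7.01 in mock at 1 h and 9.72, 8.85 and 10.23 in mock at 4 h. The 4 h arrays differ from one another by more than 1 log2 unit, replicate 2 being the lowest, yet all lie above the 1 h arrays. PRR5 rose by 2.67 (SE 0.28), or 6.34-fold, with adjusted p = 6.73e-05. PRR7 read 8.98, 9.03 and 8.87 at 1 h and 9.69, 9.39 and 9.72 at 4 h, without overlap, and rose by 0.64 (SE 0.12), or 1.56-fold (adjusted p = 0.00367). That call ended when replicate number 1 or 3 was left out of all groups, at adjusted p = 0.0948 and 0.0960.

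GI, TOC1 and the evening-complex genes ELF3 and ELF4 also rose in mock. GI read 8.13, 8.20 and 8.51 at 1 h and 9.75, 9.54 and 9.72 at 4 h, a rise of 1.39 (SE 0.12), or 2.62-fold, with adjusted p = 6.01e-06. ELF4 read 6.50, 6.18 and 6.04 at 1 h and 7.73, 7.39 and 8.04 at 4 h, a rise of 1.48 (SE 0.19), or 2.79-fold (adjusted p = 0.000288). Both pairs of groups are clearly separate. TOC1 read 8.44, 8.32 and 8.16 at 1 h and 9.24, 8.66 and 9.22 at 4 h. ELF3 read 8.70, 8.60 and 8.63 at 1 h and 9.40, 8.90 and 9.68 at 4 h. In these genes replicate 2 at 4 h sits close to the 1 h arrays but does not reach them. TOC1 rose by 0.73 (SE 0.14, adjusted p = 0.00497) and ELF3 by 0.68 (SE 0.15, adjusted p = 0.0131), 1.66-fold and 1.60-fold. Without replicate number 1 or 3, TOC1 had adjusted p = 0.0966 and 0.134, and ELF3 0.169 and 0.144. The ELF3 call was also lost on leaving out replicate 2 (0.0549) or replicate 3 (0.0502) of mock 1 h, and with only the arrays of the comparison (0.0637).

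So 6 of 8 rose and 2 of 8 fell in mock, where 3.64% of all loci rose and 5.64% fell. All 8 pairs of groups were without overlap, against 28.9% of all loci. The median size of the change was 1.43 log2 units over the 8 genes and 0.14 over all loci.

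The same interval in DEX leaves, which shares no array with the mock comparison, gave the same 8 calls. LHY read 10.45, 10.71 and 10.73 after 1 h, then 7.91, 7.76 and 8.06 after 4 h, and fell by 2.72 (SE 0.11, adjusted p = 1.87e-09). CCA1 read 9.05, 9.34 and 9.15 at 1 h and 7.02, 6.73 and 7.17 at 4 h, and fell by 2.21 (SE 0.11, adjusted p = 5.04e-08). These are 6.59-fold and 4.62-fold lower levels. PRR5 read 6.40, 6.33 and 7.20 at 1 h and 10.12, 9.97 and 10.35 at 4 h. It rose by 3.50 (SE 0.28), or 11.3-fold (adjusted p = 2.25e-06), with rank 4 by size among all loci. At 4 h its DEX arrays lay closer together than its mock arrays.

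GI began at 8.18, 8.42 and 8.26 and reached 9.84, 9.70 and 9.91, and rose by 1.53 (SE 0.12, adjusted p = 1.16e-06). ELF4 read 6.51, 6.88 and 6.40 and then 7.81, 8.40 and 7.99, and rose by 1.47 (SE 0.19, adjusted p = 0.000123). These rises are within 0.2 log2 units of those in mock. TOC1 read 8.10, 8.26 and 8.11 and then 9.51, 9.33 and 9.46, and rose by 1.27 (SE 0.14), or 2.42-fold, with adjusted p = 3.13e-05. ELF3 read 8.73, 8.86 and 8.71 and then 9.62, 9.51 and 9.78, a rise of 0.87 (SE 0.15, adjusted p = 0.00125). Its adjusted p was 0.0537 without replicate number 1. PRR7 read 8.93, 9.18 and 8.92 and then 9.49, 9.68 and 9.76, a rise of 0.64 (SE 0.12, adjusted p = 0.00165), and 0.0511 without replicate number 3.

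In DEX, too, 6 of 8 rose and 2 fell, all 8 without overlap; among all loci 10.4% rose, 8.98% fell and 39.5% did not overlap. The median change, with its sign, was 1.07 over the 8 genes and -0.02 over all loci. Across both treatments, 6 of the 8 genes rose in both comparisons and 2 fell in both, while of 21428 loci 611 rose in both, 652 fell in both and 28 changed in opposite directions.

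**Figure D2:**
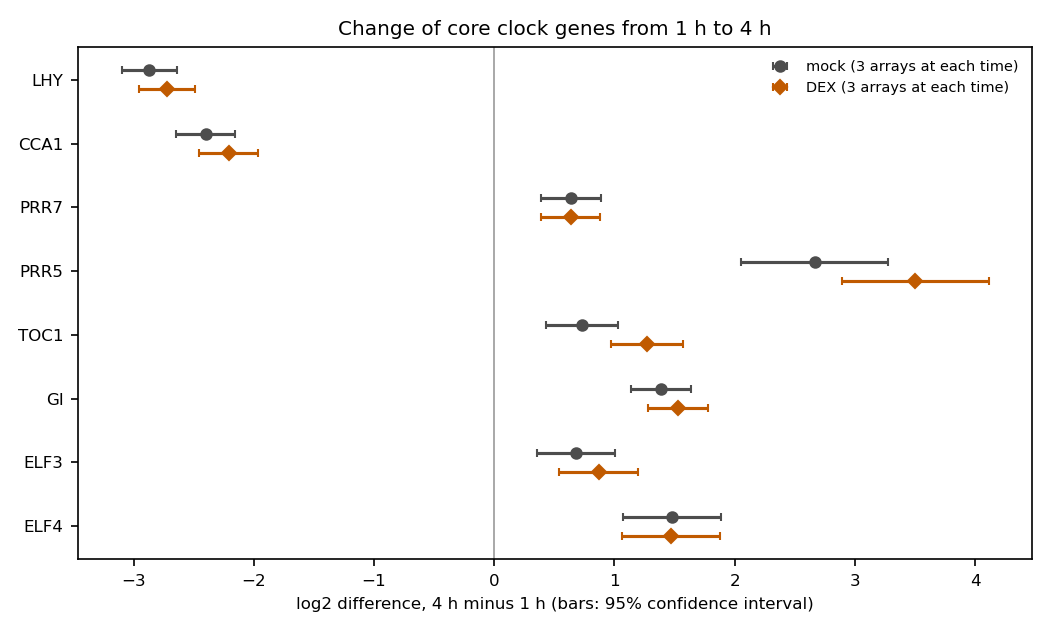
Log2 difference between 4 h and 1 h for each measured clock gene, in mock (circles) and in DEX (diamonds), with 95% confidence intervals from the fit across all loci and 3 arrays per group. LHY and CCA1 lie far left of 0 and the other 6 to the right, and the intervals of mock and DEX overlap for every gene.

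The difference between the 2 time changes, which is also the difference between the DEX responses at 4 h and 1 h, did not pass for any of the 8 genes by limma (0 of 8, against 1.28% of all loci; 1 of 8 at an unadjusted p under 0.05). That gene was TOC1, with a difference of 0.54 (95% confidence interval 0.12 to 0.96, adjusted p = 0.276). For PRR5 the difference was 0.84, with an interval from -0.02 to 1.70 that takes in both no difference and more than a 3-fold one. For GI it was 0.14 (-0.21 to 0.49), for LHY 0.15 (-0.18 to 0.48), for CCA1 0.19 (-0.16 to 0.54) and for ELF3 0.19 (-0.27 to 0.65). PRR7 had -0.00 (-0.36 to 0.35) and ELF4 -0.01 (-0.58 to 0.57). The intervals therefore allow differences of about 0.35 to 1.70 log2 units, and a p that misses the threshold does not show that the time course was alike.

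Within 1 time, DEX and mock arrays were set against each other to read the clock genes' response to dexamethasone and gai-GR together. After 1 h, limma called 0 of 8 (1 of 8 had an unadjusted p under 0.05), where 0.714% of all loci did. CCA1 was the one below that level, at -0.26 (SE 0.11, interval -0.51 to -0.02, adjusted p = 0.905). All 3 of its DEX arrays (9.05 to 9.34) lay under all 3 mock arrays (9.43 to 9.47). ELF3 was also without overlap, 0.12 higher in DEX (interval -0.20 to 0.45). So 2 of 8 pairs of groups did not overlap, against 13.1% of all loci. ELF4 differed by 0.35 (interval -0.05 to 0.76), PRR5 by -0.29 (-0.90 to 0.32), TOC1 by -0.15, PRR7 by 0.05, LHY by -0.03 and GI by 0.01, and their arrays overlapped.

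After 4 h, limma again called 0 of 8, with 1 of 8 under 0.05 before adjustment, where 7.90% of all loci did. TOC1 was the one below that level, and its group order was DEX 1 h, mock 1 h, mock 4 h, DEX 4 h, with means of 8.16, 8.30, 9.04 and 9.43. Its DEX arrays at 4 h (9.33 to 9.51) lay above the mock arrays (8.66 to 9.24), the 1 of 8 pairs without overlap, against 20.4% of all loci. The difference was 0.39 (SE 0.14, interval 0.09 to 0.69, adjusted p = 0.109). PRR5 differed by 0.55 (interval -0.06 to 1.16, adjusted p = 0.298), ELF4 by 0.35 (-0.06 to 0.75), ELF3 by 0.31 (-0.02 to 0.64), GI by 0.15 (-0.10 to 0.40), LHY by 0.12 (-0.11 to 0.35), PRR7 by 0.04 (-0.21 to 0.29) and CCA1 by -0.07 (-0.32 to 0.17). The DEX mean was the higher one in 7 of 8 genes, with a median of 0.23, and 0.02 over all loci.

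**Figure D3:**
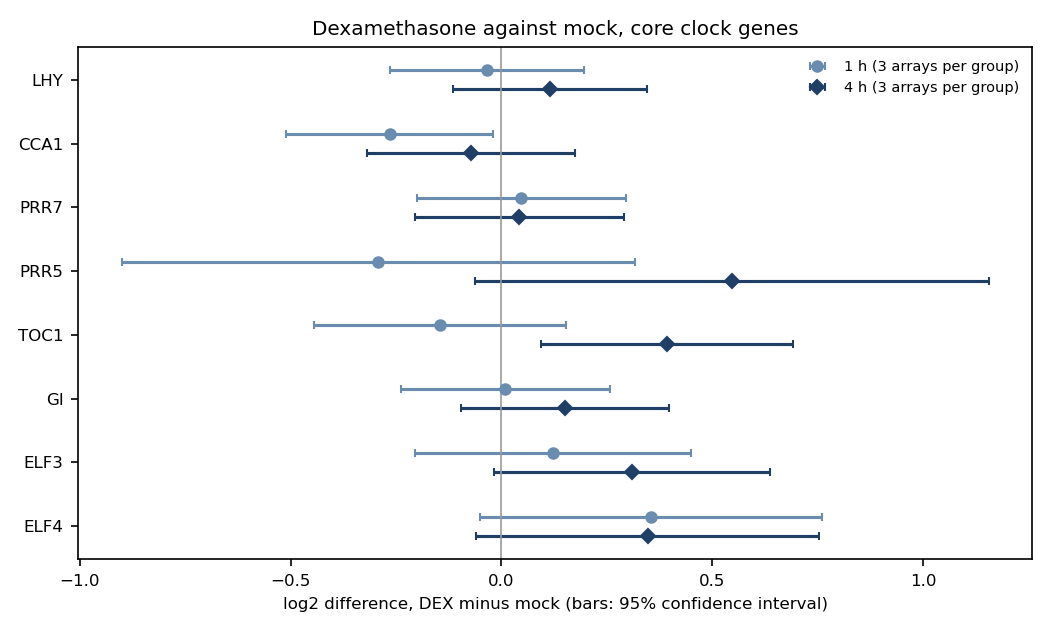
Log2 difference between DEX and mock for each measured clock gene at 1 h (circles) and at 4 h (diamonds), with 95% confidence intervals and 3 arrays per group. The values run from -0.29 to 0.55, no gene passed after adjustment over all loci, and the PRR5 intervals are the widest.

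These differences at 4 h lean on 1 array. In all 6 genes that rose with time, mock 4 h replicate 2 had the lowest value of the 6 arrays at 4 h; it did so in neither LHY nor CCA1. The same array was lowest in 42.1% of all loci, and in 66.3% of the loci called higher with time in mock when it was left out of the fit. Those loci were selected on high values of the other 2 mock arrays at 4 h. That selection itself favours a low rank of the array left out, so the 66.3% is no neutral reference. Mock 4 h replicate 2 lay 1.12 log2 units under the mean of the other 2 mock arrays for PRR5, 0.64 under for ELF3 and 0.57 under for TOC1. Its array median was also the lowest of the 12, and the part of that in these values was not tested. Without it the DEX difference was 0.17 for PRR5 (adjusted p = 0.736), 0.20 for TOC1 (0.274), 0.10 for ELF3 (0.687), 0.18 for ELF4 (0.652) and 0.09 for GI (0.758), PRR7 went from 0.04 to -0.06, and the median of the 8 was 0.11. Without mock 4 h replicate 3 instead, ELF3 passed, at 0.49 (adjusted p = 0.0439), the only call among the alternatives in this comparison. Centring the arrays on their medians moved the median of all loci from 0.02 to -0.09 and left 6 of 8 genes above 0 and 7 of 8 above that median.

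**Figure D4:**
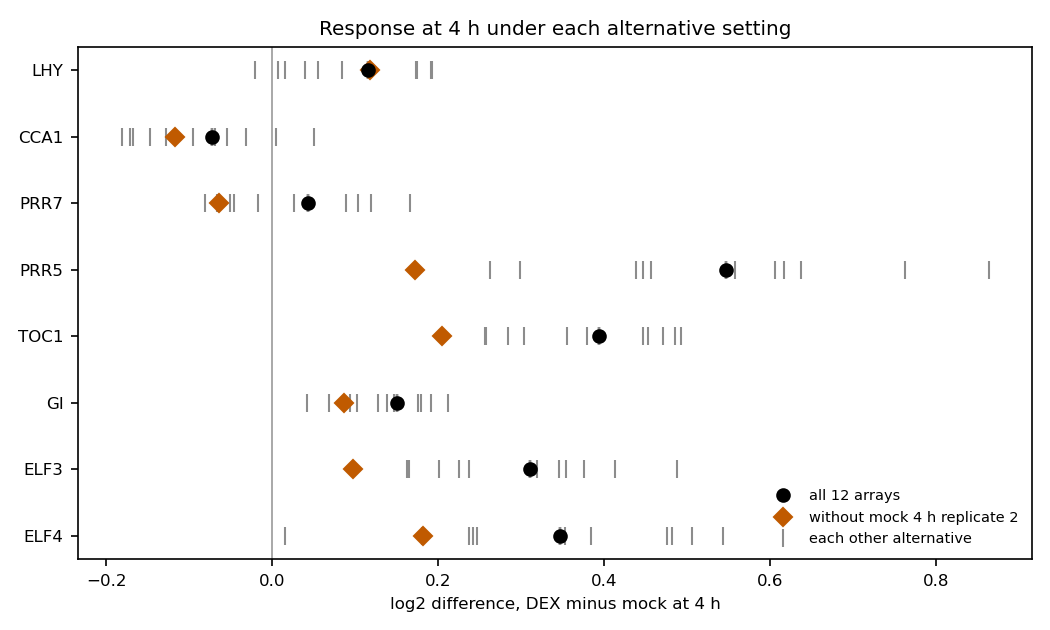
Log2 difference between DEX and mock at 4 h for each measured clock gene, with all 12 arrays (circles), without mock 4 h replicate 2 (diamonds) and under each other alternative setting (ticks). PRR5 moves from 0.55 to 0.17 and ELF3 from 0.31 to 0.10 when that array is left out, and LHY, CCA1 and PRR7 have values on both sides of 0.

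The time changes all kept their calls without that array. In mock, PRR5 then rose by 3.04 (adjusted p = 2.20e-06), TOC1 by 0.92 (8.25e-05), ELF3 by 0.89 (0.000169) and PRR7 by 0.75 (0.000702), while LHY and CCA1 fell by 2.87 and 2.35. The spread among replicates differed between the genes. The residual SD over the 12 arrays was 0.44 for PRR5, larger than in 99.5% of all loci, and 0.28 for ELF4, at percentile 95.6. LHY, CCA1, PRR7 and GI had residual SDs of 0.13 to 0.14, close to the median of all loci (0.14).

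Further clock genes were read from a list of 36, of which 31 had values. The REVEILLE and LNK activators are MYB factors related to LHY and the coactivators that work with them. In mock 7 of 11 fell and the other 4 did not pass, where 5.64% of all loci fell. In DEX the same 7 fell and 4 did not pass, against 8.98% of all loci. The coactivator gene LNK3 (AT3G12320) read 9.53, 9.44 and 9.20 in mock at 1 h and 6.93 to 7.13 at 4 h, and fell by 2.37 (SE 0.12) in mock and 2.12 in DEX. LNK4 (AT5G06980) fell by 1.73 and 1.24, RVE1 (AT5G17300), which promotes auxin synthesis, by 1.21 and 0.84, LNK2 (AT3G54500) by 1.15 and 0.96, and RVE4 (AT5G02840) by 1.05 and 0.58. RVE4 lost its DEX call without replicate number 3, at adjusted p = 0.0622. RVE8 (AT3G09600) fell by at least 0.94 and 0.68, since its means at 4 h, 4.97 and 5.10, are near background. The seventh was LNK1, which lost its DEX call without any of 3 single arrays or replicate numbers 2 or 3, at adjusted p up to 0.138 for number 2, and its mock call without number 3, at 0.0504.

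Among relatives and partners of the core genes, 4 of 20 rose in mock, 2 fell and 14 did not pass, where 3.64% of all loci rose and 5.64% fell. In DEX 6 rose, 3 fell and 11 did not pass, against 10.4% and 8.98% of all loci. PRR3 (AT5G60100), which protects TOC1 from degradation, rose by 1.47 (SE 0.16) in mock and 1.65 in DEX, in the same direction as PRR5 and TOC1. COR27 (AT5G42900), a cold- and clock-regulated gene, rose by at least 1.77 and 2.45, and AT4G33980 by at least 0.83 and 2.12, since their 1 h means of 5.10 to 5.27 are near background. The jumonji-domain gene JMJD5 (AT3G20810) rose by 0.90 and 2.22, its mock call being lost without replicate number 1 (0.166) or 3 (0.110) or with only the arrays of the comparison (0.0506), and the B-box gene BBX19 (AT4G38960) fell by 1.24 and 1.03. The other gene that fell in mock was XCT (AT2G21150), by 0.38 (adjusted p = 0.0460). Its calls ended without each replicate number, at adjusted p up to 0.192 in mock for number 1 and 0.102 in DEX for number 3. ZTL, the F-box gene that targets TOC1, changed by -0.33 and -0.21 and did not pass. In all, 13 of these 31 genes passed in mock and 16 in DEX, 4 of them higher and 9 lower in both.

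Rhythmic output genes were called in 11 of 16 cases in mock (2 rose, 9 fell) and 13 of 16 in DEX (3 rose, 10 fell). Over all loci 3.64% rose and 5.64% fell in mock, and 10.4% and 8.98% in DEX. GRP7 (AT2G21660), an RNA-binding protein gene of an output loop, read 11.66, 11.62 and 11.65 in mock at 1 h and 13.66, 13.47 and 13.69 at 4 h, near the top of the scale at 14.1. It rose by 1.96 (SE 0.10) in mock and 1.88 in DEX, and its relative GRP8 by 1.16 and 1.06. COL2 (AT3G02380), a CONSTANS-like gene, fell by 2.76 (SE 0.09) and 2.42, COL1 (AT5G15850) by 1.36 in mock, and CDF3 (AT3G47500), a DOF repressor of CONSTANS, by 1.24 and 0.99. Of the 12 light input genes, 1 rose, 2 fell and 9 did not pass in mock, and 2 rose, 1 fell and 9 did not pass in DEX, beside the same shares of all loci. The 1 that rose in mock was PHYA, at 0.36 (adjusted p = 0.0402), a call lost under 13 of 22 alternatives.

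**Figure D5:**
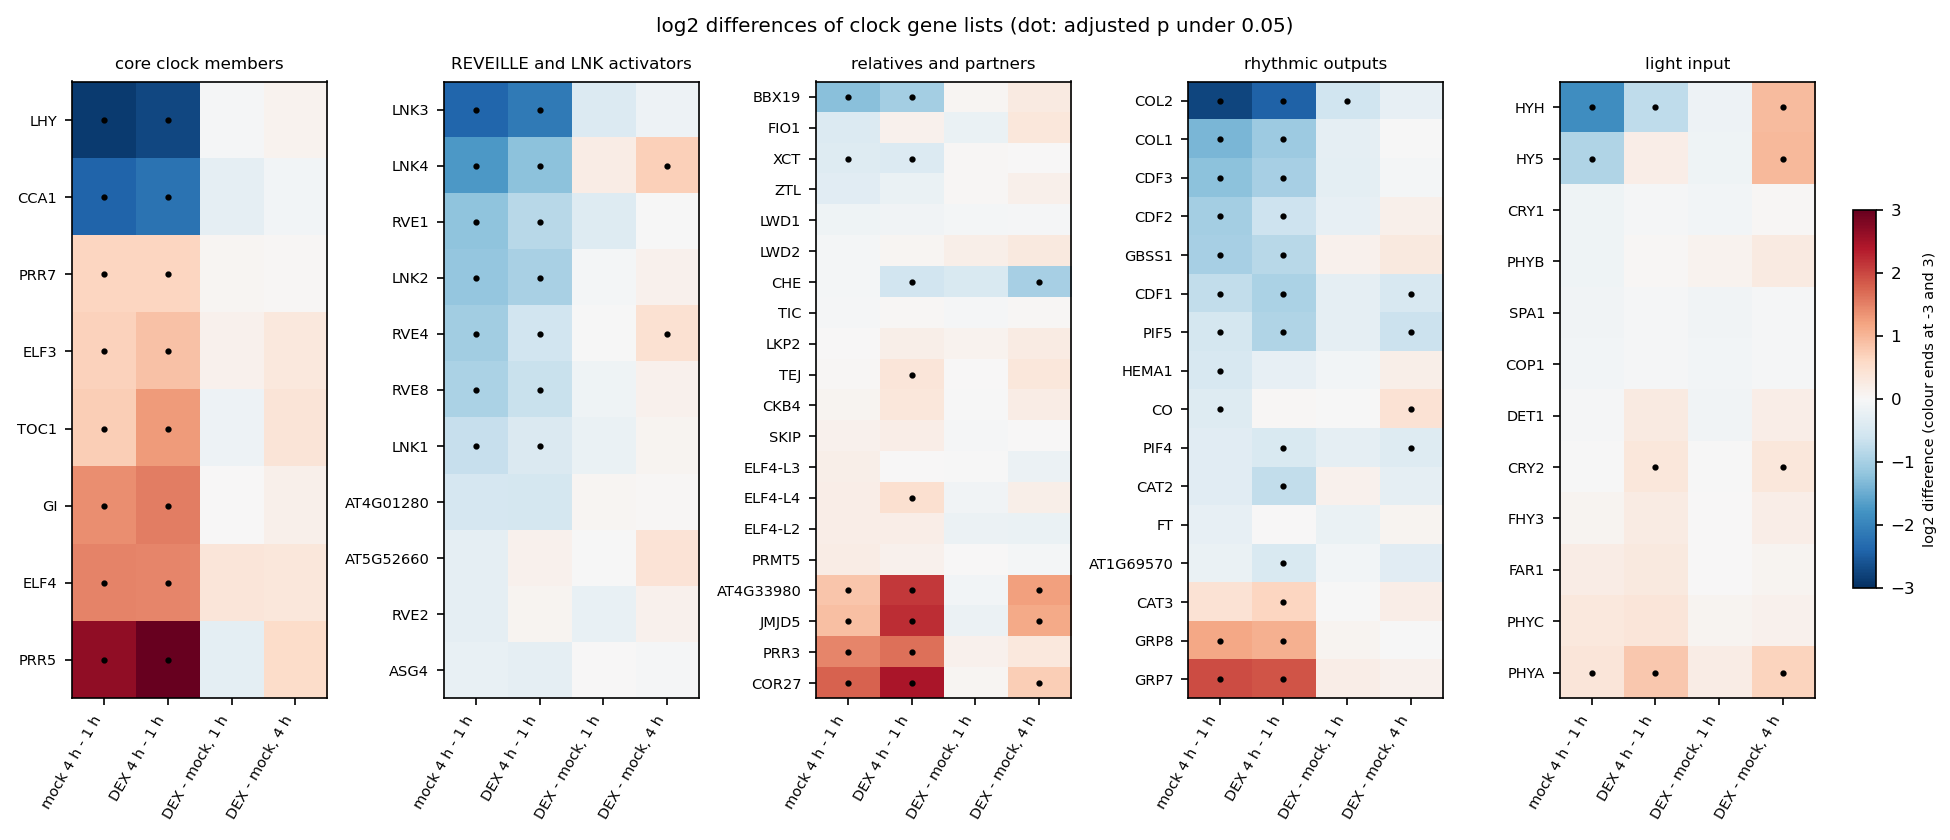
Log2 differences in 4 comparisons (columns) for the measured members of 5 gene lists (rows, ordered by the mock time change), with colour from -3 to 3 and a dot where the adjusted p was under 0.05. The core clock genes have a dot in both columns for time and in neither DEX column, and in the light input list 4 of 12 genes have a dot for DEX at 4 h and 3 of 12 in each column for time.

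No core clock gene passed for DEX, and 0 of 8 lies near the 7.90% of all loci called at 4 h, so it does not set them apart. Some genes around them passed at 4 h. Of the 31 clock-associated genes, 5 rose, 1 fell and 25 did not pass, where 5.35% of all loci rose and 2.55% fell. AT4G33980 read 6.007, 6.003 and 6.305 in mock and 7.19, 7.36 and 7.42 in DEX at 4 h, a rise of 1.22 (SE 0.11), or 2.33-fold (adjusted p = 4.87e-06). JMJD5 read 7.22, 6.45 and 7.41 in mock and 8.34, 8.15 and 8.02 in DEX, a rise of 1.14 (SE 0.19, adjusted p = 0.00136), which was 0.86 without mock 4 h replicate 2 (adjusted p = 0.000478). Neither pair of groups overlapped.

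COR27 rose by 0.75 (SE 0.15, adjusted p = 0.00502), LNK4 by 0.72 (SE 0.10, adjusted p = 0.000346) and RVE4 by 0.46 (SE 0.13, adjusted p = 0.0366). COR27 lost its call without replicate number 2, at 0.110. RVE4 lost it without any of 7 single arrays, at adjusted p up to 0.133 for DEX 4 h replicate 1, and was at 0.31 without mock 4 h replicate 2. Its call also ended without each replicate number (up to 0.215 for number 1), with only the arrays of the comparison (0.146) and with array weights (0.0790). CHE (AT5G08330), a TCP factor that represses CCA1, read 9.20, 8.78 and 9.44 in mock and 8.28, 8.13 and 8.05 in DEX, and fell by 0.99 (SE 0.15, adjusted p = 0.000533). CCA1 itself differed by -0.07 between these arrays.

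Among light input genes at 4 h, 4 of 12 rose with DEX, none fell and 8 did not pass, where 5.35% of all loci rose and 2.55% fell. HY5 (AT5G11260), a bZIP factor that promotes light responses, read 6.96, 6.80 and 6.97 in mock and 7.79, 7.74 and 8.09 in DEX, and rose by 0.96 (SE 0.12, adjusted p = 8.42e-05). Its homologue HYH (AT3G17609) rose by 0.94 (SE 0.13, adjusted p = 0.000253). In mock both had fallen from 1 h to 4 h, HY5 by 0.90 and HYH by 1.86, whereas in DEX HY5 changed by 0.21 without passing and HYH fell by 0.76. The photoreceptor gene PHYA (AT1G09570) rose with DEX by 0.66 (SE 0.10, adjusted p = 0.000617), and CRY2 (AT1G04400) by 0.34 (adjusted p = 0.0277), a call lost without any of 4 single 4 h arrays, mock replicate 2 among them (0.0558). The CRY2 call also ended without each replicate number (up to 0.186 for number 3) and with arrays centred on their medians (0.140). It ended too with only the arrays of the comparison (0.128) and with array weights (0.0711).

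Of the 16 output genes at 4 h, 1 rose and 3 fell with DEX and 12 did not pass, where 5.35% of all loci rose and 2.55% fell. PIF5 (AT3G59060), a bHLH factor whose transcript the evening complex represses, fell by 0.65 (SE 0.11, adjusted p = 0.00213), CDF1 (AT5G62430) by 0.48 (adjusted p = 0.00988) and PIF4 (AT2G43010) by 0.38 (adjusted p = 0.0415). CO (AT5G15840) rose by 0.42 (adjusted p = 0.0279), from a mock mean of 5.80 that lies at the edge of background. PIF5 lost its call without replicate number 1 (0.0878) and CDF1 without number 3 (0.156), while PIF4 and CO lost theirs under 14 and 9 of 22 alternatives. At 1 h, where limma called 0.714% of all loci, it called 0 of 31 clock-associated genes (4 had an unadjusted p under 0.05). It called 0 of 12 light input genes (1 at that level) and 1 of 16 outputs, COL2, which fell by 0.59 (adjusted p = 0.00563). COL2 lost that call without replicate number 1 (0.373) or 3 (0.198).

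Markers of tissue moved beside these values. The summed linear level of 6 leaf markers ran from 52133 to 52482 in mock at 1 h, 51235 to 51947 in DEX at 1 h, 43616 to 47017 in mock at 4 h and 42062 to 43074 in DEX at 4 h. Of these, AS1 (AT2G37630) and GRF5 (AT3G13960), leaf growth genes, fell with DEX at 4 h by 0.91 and 0.96. The leaf sum mostly follows the light-harvesting genes LHCA1, LHCB3 and LHCB5, with log2 means of 13.5 to 13.9. PSBO2, AS1 and GRF5 had means of 8.53 to 12.3. The sum over 5 shoot meristem markers was 437 to 455, 424 to 441, 449 to 507 and 340 to 370 in the same order. In that list KNAT1 (AT4G08150) rose by 0.72 with time in mock and fell by 1.33 with DEX at 4 h, the 1 of 5 called in each. Its rise in mock lost its call without replicate number 1, at adjusted p = 0.0952. Over all loci, 3.64% rose and 5.64% fell with time in mock, and 5.35% rose and 2.55% fell with DEX at 4 h. Root marker sums were 1275 to 1347, 1514 to 1896, 1112 to 1277 and 1263 to 1360, with 0 of 5 called by limma in those 2 comparisons (none under 0.05 before adjustment). The root sums mostly follow SCR, with log2 means of 9.72 to 10.33, the highest in DEX at 1 h. PLT1, CASP1, COBL9 and RHD6 had means of 5.33 to 7.01. From 1 h to 4 h in DEX, 4 of 6 leaf markers were called lower, against 8.98% of all loci. So were 1 of 5 meristem and 2 of 5 root markers. The calls of LHCB3, KNAT1, SCR and RHD6 there ended without replicate number 1, at adjusted p from 0.0868 to 0.211. At 1 h, DEX against mock called 0 of 5 root markers (1 under 0.05 before adjustment), against 0.714% of all loci. Fewer cells of a type and less RNA per cell cannot be told apart here, and the part of tissue makeup in the clock values was not tested.

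The loci whose pattern over the 12 arrays was most like that of a clock gene were taken among 8967 named loci by Pearson's r. For LHY these were STH (AT2G31380), a B-box gene, with r = 0.989, PIP2A (AT3G53420), a water channel gene, with 0.987, SLP1 (AT1G07010) with 0.986 and GAMMA CAL1 (AT5G63510) with 0.983. For GI they were RIBA2 (AT2G22450) with 0.988, RbcX1 (AT4G04330) with 0.983, TAG1 (AT2G19450) with 0.983 and GRP7 with 0.982. For PRR7 they were MFP1 (AT3G16000) with 0.985, ATGRIP (AT5G66030) with 0.974, LETM1 (AT3G59820) with 0.969 and PTAC17 (AT1G80480) with 0.967. STH fell by 1.87 in mock and 1.83 in DEX, and RIBA2 rose by 1.65 and 1.66. The arrays fall into 2 clusters by time, so these coefficients mostly restate the change from 1 h to 4 h. Within the 6 arrays of 4 h, STH and LHY had r = 0.107, and MFP1 and PRR7 had 0.920. Within the 6 arrays of 1 h, the same pairs had 0.843 and 0.841. All are descriptions over arrays that share groups.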

How the data were processed

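The deposited table holds log2 expression per probe set, made by the authors with RMA per the submitters' processing notes; the software version and the probe set definition are not given in the sources used here. RMA removes background, normalizes arrays to each other and summarizes probes, so levels near its floor understate changes. Of 21492 sets, 64 controls were left out and 21428 loci tested with no filter. No 2 arrays were identical (0 pairs), and 0 columns came from other series.

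A linear model with 1 mean for each group was fitted to all 12 arrays (limma 3.58.1, R 4.3.3), with 8 residual degrees of freedom and 5.85 from the prior. Tests were two-sided, with Benjamini-Hochberg adjustment over all loci and calls at an adjusted p under 0.05. The fit was tested on simulated data. Figures used matplotlib 3.10.9.

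The members and lists were chosen with earlier results of these data known. All members, list genes that passed (at most 6 per list and comparison), the 4 loci most like LHY, GI and PRR7, and check genes are named. LNK1, GRP8, ZTL, FIO1 and the marker genes were named after their values were seen. Symbols come from the TAIR10.1 gene table, and genes it gives none are named by locus. No sequence is shown, since none was in the files used here.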

Additional observations from a re-analysis of the deposited data

Results flagged for a closer look

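The DEX response differed between 4 h and 1 h, by limma's test of that difference, in 6 of the listed genes, where 1.28% of all loci passed. They were 2 of 31 clock-associated genes, 2 of 12 light input genes, 1 of 6 leaf markers and 1 of 5 meristem markers. None passed among 16 outputs, 5 root markers, 5 check genes and 8 core clock genes, and 0 of 8 lies near that share. Groups of 3 arrays were too small for a rule that flags single outlying samples. Mock 4 h replicate 2, with the lowest array median and the lowest mean correlation to its group (0.988), enters every difference here. JMJD5 had a difference of 1.32 (SE 0.27, adjusted p = 0.0276), from -0.18 at 1 h to 1.14 at 4 h. For AT4G33980 it was 1.29 (SE 0.15, adjusted p = 0.000577), where both groups at 1 h were near background and a response there could be hidden. HY5 had 1.105 (SE 0.17, adjusted p = 0.00351) and HYH 1.101 (SE 0.18, adjusted p = 0.00749). GRF5 had -1.23 (SE 0.14, adjusted p = 0.000383) and KNAT1 -1.34 (SE 0.20, adjusted p = 0.00297). Leaving out single arrays or replicate numbers ended the JMJD5 call in 10 cases, with adjusted p up to 0.368 without number 1. The GRF5 and KNAT1 calls ended without number 1 (0.0728 and 0.128). The AT4G33980 call ended without number 1 (0.0553), the HY5 call without number 1 or 3 (up to 0.0863), and the HYH call without any of the 3 numbers (up to 0.115).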

How the results depend on the processing

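All 16 time changes of the 8 clock genes kept their direction under each of 22 alternatives. The count called in mock, 8, was 5 to 8 when arrays or replicate numbers were left out, and 5 with a 2-fold minimum, where PRR7, TOC1 and ELF3 were lost; fewer arrays and the minimum itself make these tests stricter. In DEX it was 7 to 8, and 6 with a 2-fold minimum. For DEX against mock it was 0 in each setting at 1 h and 0 to 1 at 4 h, and for the difference of the responses 0 in each. Of the clock-associated genes, leaving arrays out gave 10 to 14 in mock, 10 to 19 in DEX, 0 at 1 h and 4 to 7 at 4 h. The 2-fold minimum gave 8, 7 and 2 for mock, DEX and the 4 h response, and array weights gave 1 at 1 h, CHE; the cause was not tested. With the replicate block the clock gene counts were 8, 8, 0, 0 and 0, and the associated counts 13, 16, 0 and 5, with RVE4 lost at 0.0562. The 13 in mock were then not the same genes, since XCT was lost (adjusted p = 0.0639) and FIO1 (AT2G21070) gained (0.0491). Same-numbered arrays deviated together weakly (r from -0.10 to 0.19, over 0.1 in 3 of 18 pairs), so the numbers were not taken as pairs. Differently numbered arrays had r from -0.17 to 0.13, over 0.1 in 1 of 36 pairs. The 3 same-numbered pairs over 0.1 were mock and DEX arrays of the same time, and pairing within a time was not fitted. The number of arrays limits what can be seen: the median SE was 0.12 log2 units.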
